A study of Mus musculus with 4 samples.

Results

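The genes described here are the nuclear-encoded subunits of the mitochondrial respiratory chain and the ATP synthase, measured cell by cell in macrophages and monocytes of the mouse colon. Members were the protein-coding genes whose symbol starts with Ndufa, Ndufb, Ndufc, Ndufs, Ndufv, Sdh, Uqcr, Cox4, Cox5, Cox6, Cox7, Cox8 or Atp5 and that had at least 100 unique molecular identifiers (UMIs, 1 per captured transcript) over all barcodes. Of 28692 genes, 97 had such a symbol and 90 reached the minimum. Just inside it were Cox7a1 with 154 UMIs, Ndufaf5 with 206 and Ndufaf6 with 209, and just outside were Atp5s with 93, Cox6a2 with 50 and Cox4i2 with 27. Of the other 4 genes under the minimum, Ndufa4l2 had 2 UMIs, and Cox7b2, Cox8b and Cox8c had 0. By function the 90 members fell into 36 subunits of complex I, 4 of complex II, 8 of complex III, 13 of complex IV, 16 of the ATP synthase and 13 assembly factors. The symbols include Ndufa4, placed with complex IV because its product is known to belong to that enzyme, and Cox7a2l, placed with the assembly factors because its product joins complexes into supercomplexes.

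The respiratory chain sits in the inner mitochondrial membrane. Complex I takes electrons from NADH and complex II from succinate, complex III passes them on to cytochrome c, and complex IV hands them to oxygen. Complexes I, III and IV pump protons, and the ATP synthase lets these protons flow back through a ring of c subunits that turns its central stalk, which drives ATP formation in the catalytic head. All complexes but complex II combine subunits encoded in the nucleus with a few encoded by mitochondrial DNA, so that 2 genomes contribute to the same enzyme. Macrophages are known to shift between glycolysis and mitochondrial respiration as they are activated or settle in a tissue, and in the colon blood monocytes, rich in Ly6c2, replace resident macrophages, rich in complement C1qa, throughout life.

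Colon lamina propria cells of 4 male C57/Bl6N mice were studied. For about 6 months, on 5 days of each week, DEP 11 and DEP 13 were gavaged with 12 µg of diesel exhaust particles (DEP) suspended in 200 µL of phosphate-buffered saline (PBS), whereas PBS 2 and PBS 3 were gavaged with PBS alone. The labels name no genetic change in any mouse and do not give the age. Cells positive for CD11b and for Ly6C or CD64 were sorted from each mouse and run as 1 library of their own on the 10x Genomics platform, which counts the 3' ends of transcripts, so each group is 2 animals and each animal 1 library. The libraries held between 4489342 UMIs (DEP 13) and 10293703 UMIs (PBS 2). Of 6954 barcodes, 4771 had at least 1000 UMIs, and 106 of those were led by T cell, B cell or plasma cell markers and left out. The 4665 analysed barcodes comprised 1191 of DEP 11, 650 of DEP 13, 1283 of PBS 2 and 1541 of PBS 3, an order kept for all values that follow. All 7 myeloid markers were detected in each mouse. Among barcodes with at least 1000 UMIs, 12 codes occurred in more than 1 library. For the respiratory chain genes PBS 3 stood apart from the other mice, with the highest summed level in the Ly6c2-high class, the C1qa-high class and both classes between them.

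To follow the genes from monocytes to macrophages, barcodes were classed by 2 genes that are not members. C1qa, as UMIs per 10000 of a barcode, was divided into 3 equal parts at 15.1 and 52.7, and Ly6c2 was called high in its top 25%, over 1.95. A Ly6c2 UMI was found in 40.8% of analysed barcodes. A single Ly6c2 UMI passed the limit in a shallow barcode but not in a deep one, so the class depends in part on depth. Ly6c2-high barcodes had low C1qa and numbered 210, 108, 203 and 249. C1qa-high barcodes had no high Ly6c2 and numbered 423, 182, 459 and 379. Between them lay barcodes low for both genes (231, 120, 157 and 277) and C1qa-middle barcodes (289, 235, 428 and 603), which were set by C1qa alone and include barcodes with high Ly6c2. The remaining barcodes were high for both genes (38, 5, 36 and 33) and were left out of the class comparisons. The 11 monocyte markers (among them Ccr2, Plac8 and Vcan) summed to 8340 to 9551 CPM in the Ly6c2-high and 554 to 850 in the C1qa-high class of the 4 mice, and the 13 macrophage markers (among them Adgre1, Mrc1 and Csf1r) to 12541 to 18988 and 61188 to 68594. Both lists include the gene that set the class. The classes are ranges of a level and not cell types, and 395, 995 and 306 barcodes lay within 1.2 fold of the lower C1qa, upper C1qa and Ly6c2 limit. A sum over barcodes gives the share of a gene in all RNA captured, so each level is given in CPM, the UMIs of a gene per 1000000 UMIs of the sum, which compares a gene between samples. Because the assay counts 3' ends, this level does not grow with transcript length.

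The members are shown first by the stretch in front of their genes. Of the 90 members, 76 had a promoter entry in RefSeq (GRCm38.p6), in 81 windows that run from 250 bases before to 50 bases after a transcription start, and windows of 1 gene can overlap. Letters of the motif bound by NRF1, a transcription factor known as a regulator of respiratory chain genes, were searched as GCGCA and GCGC with 1 base of any kind between them, on both strands as for all motifs. They were present in 22 of the 81 member windows (27.2%) and in 1512 of all 32851 windows (4.60%). The core of the ETS family, to which GABPA belongs, was searched as CCGGAAG and was present in 21 member windows (25.9%) against 8.86% of all. The YY1 letters ATGGCGGC were present in 9 (11.1%) against 2.24%. At least 1 of these 3 motifs was found in 44 member windows (54.3%) and in 14.1% of all windows. The other 3 searches gave 11 member windows with GGGGCGGGG of Sp1 (13.6% against 11.4% of all), 4 with TGACGTCA, the cyclic AMP response element (4.94% against 1.79%), and 2 with TCAAGGTCA of the ERR receptors (2.47% against 0.423%). A match gives the letters only and is not evidence of binding.

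The following stretches of 60 bases, each 5′ to 3′ on the strand of the gene and ending at or before the transcription start, are shown as examples of members that carry the letters and were lower (8 genes), higher (Ndufa5) or not called (Atp5g2) in the class comparison. Capitals mark the NRF1 letters, on either strand, in the first 7 and the ETS letters in the last 3.

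Atp5h, chr11:115420026-115420085, minus strand: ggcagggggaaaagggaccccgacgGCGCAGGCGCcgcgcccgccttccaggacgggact

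Atp5k, chr5:108434415-108434474, minus strand: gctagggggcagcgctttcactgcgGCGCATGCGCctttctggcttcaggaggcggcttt

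Atp5c1, chr2:10080433-10080492, minus strand: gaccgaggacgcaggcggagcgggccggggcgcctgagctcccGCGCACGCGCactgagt

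Cox6a1, chr5:115349041-115349100, minus strand: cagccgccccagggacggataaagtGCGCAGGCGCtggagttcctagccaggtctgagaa

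Ndufa11, chr17:56717677-56717736, plus strand: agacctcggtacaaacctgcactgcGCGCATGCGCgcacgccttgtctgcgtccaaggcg

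Ndufa5, chr6:24527691-24527750, minus strand: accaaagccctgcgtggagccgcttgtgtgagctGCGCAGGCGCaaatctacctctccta

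Atp5g2, chr15:102671055-102671114, minus strand: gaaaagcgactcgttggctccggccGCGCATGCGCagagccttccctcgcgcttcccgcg

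Atp5l, chr9:44920921-44920980, minus strand: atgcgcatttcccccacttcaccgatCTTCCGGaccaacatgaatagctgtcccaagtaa

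Uqcrh, chr4:116075071-116075130, minus strand: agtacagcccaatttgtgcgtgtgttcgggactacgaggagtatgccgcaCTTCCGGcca

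Atp5e, chr2:174464170-174464229, minus strand: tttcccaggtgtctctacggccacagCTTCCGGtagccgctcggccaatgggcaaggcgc

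Respiratory chain transcripts took a smaller share of the RNA in C1qa-high than in Ly6c2-high barcodes, in each of the 4 mice. The members summed to 22965, 22865, 22003 and 24462 CPM in the Ly6c2-high class and to 19516, 19397, 19407 and 20618 in the C1qa-high class. The highest C1qa-high value was below the lowest Ly6c2-high value. The C1qa-high level was 85.6% ± 1.77 (SD, n = 4 mice) of the Ly6c2-high level, a mean log2 ratio of -0.225. The ratio was -0.143 when lymphoid barcodes were kept and -0.147 when classes were set by which of the 2 genes had more UMIs. Barcodes low for both genes stood at 23669, 21853, 22164 and 25651, and C1qa-middle barcodes at 21976, 20019, 20980 and 22988, so that the middle class lay between the ends in every mouse. No test was made on these sums, since members had been chosen with results known.

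**Figure D1:**
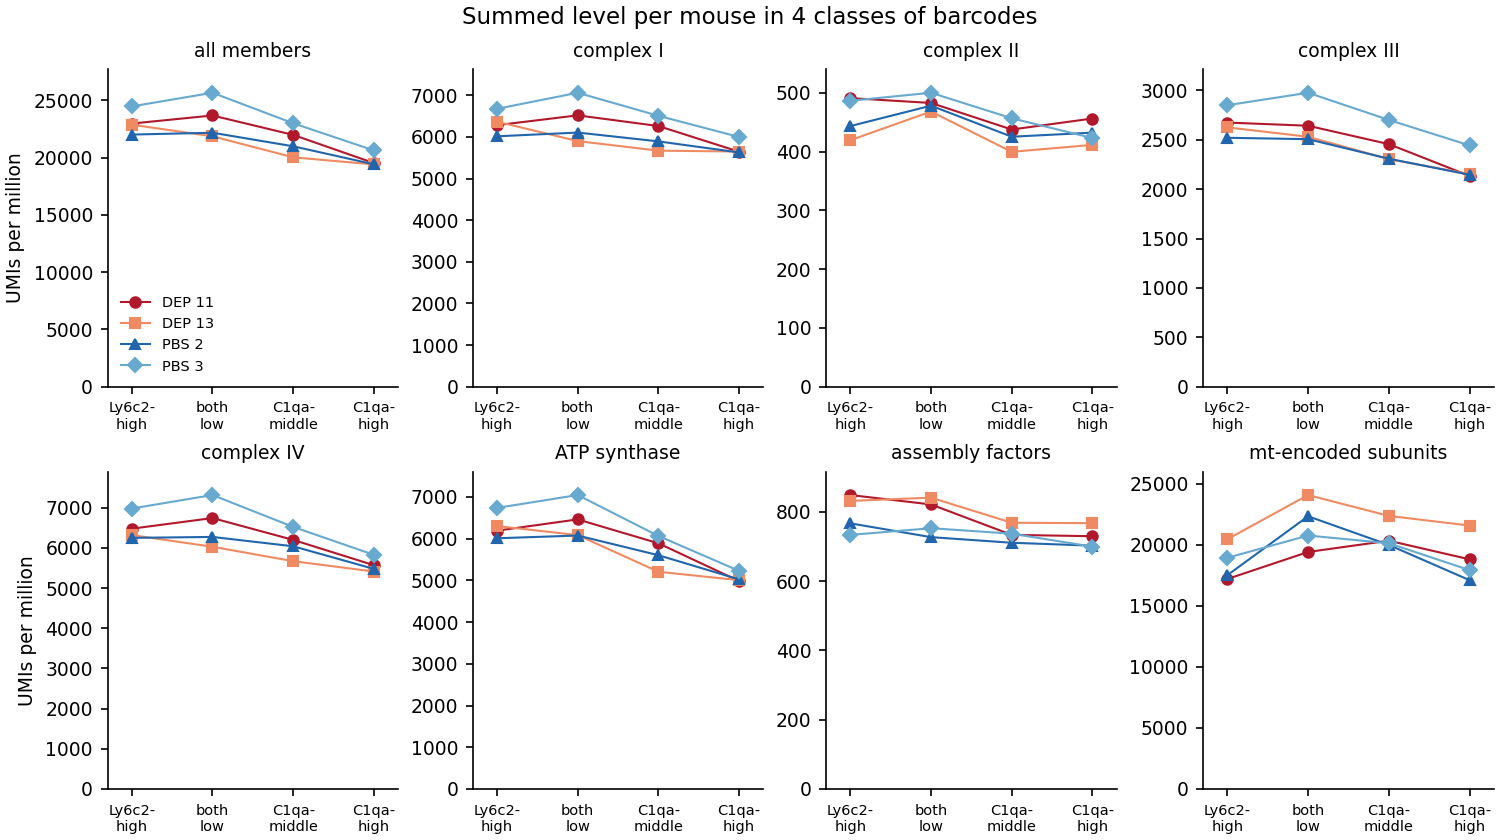
Summed level in CPM (vertical axes, from 0) of all 90 members, of each group of members and of the 13 mitochondrially encoded subunits in 4 classes of barcodes (horizontal axes; "both low" is low for Ly6c2 and C1qa), with 1 line per mouse. The ATP synthase panel falls from 6009 to 6737 in Ly6c2-high to 4982 to 5227 in C1qa-high barcodes, whereas the mitochondrially encoded subunits span overlapping ranges, 17201 to 20459 and 17105 to 21579.

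The size of the difference varied with the complex. The ATP synthase had the lowest mean ratio, with 6191, 6302, 6009 and 6737 CPM in Ly6c2-high and 4982, 5004, 5023 and 5227 in C1qa-high barcodes, a mean log2 ratio of -0.32 ± 0.045 (SD, n = 4). Complex III stood at -0.27 ± 0.048, close to the ATP synthase for the spread between mice, and in DEP 11 it was the further apart (-0.33 against -0.31). Complex IV stood at -0.22 ± 0.029. Complex I stood at -0.14 ± 0.033. Complex II, the only complex without a mitochondrially encoded subunit, stood at -0.09 ± 0.080, close to its own spread, and its sign turned (0.0079) where lymphoid barcodes were kept. With classes set by the gene with more UMIs the ATP synthase stood at -0.182, complex III at -0.197, complex IV at -0.143 and complex I at -0.103. With lymphoid barcodes kept the ATP synthase stood at -0.229, complex III at -0.173, complex IV at -0.138 and complex I at -0.082. Without mitochondrially encoded and ribosomal protein genes the ratios were larger, at -0.229 for complex I and -0.177 for complex II.

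The subunits encoded by mitochondrial DNA did not share the difference. Their 13 transcripts summed to 17201, 20459, 17514 and 18937 CPM in the Ly6c2-high class and to 18814, 21579, 17105 and 17930 in the C1qa-high class, higher in both DEP mice and lower in both PBS mice, with a mean log2 ratio of 0.02 ± 0.096 (SD, n = 4). Without mitochondrially encoded and ribosomal protein genes in the totals, the summed members had a mean log2 ratio of -0.310, and 35 were called lower and 7 higher in the gene-wise test, the numbers also found with these genes included.

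Along C1qa the members were lower in the highest than in the lowest part in every mouse, without an even slope. When barcodes were divided into 10 equal parts by C1qa, the members summed to 23925, 22353, 21322 and 24681 CPM in the lowest part. They summed to 22408, 20800, 21366 and 23739 in part 5 and to 19615, 18663, 18798 and 20413 in the highest. In PBS 2 the first 5 parts stood between 21260 and 22800 with no order, and in DEP 11 the level dropped from 22542 in part 6 to 20032 in part 7. By Ly6c2, barcodes without a Ly6c2 UMI stood at 20764, 19936, 20068 and 22212. Those with more Ly6c2 than the median of positive barcodes stood at 22726, 22545, 21579 and 23866, above them in every mouse.

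**Figure D2:**
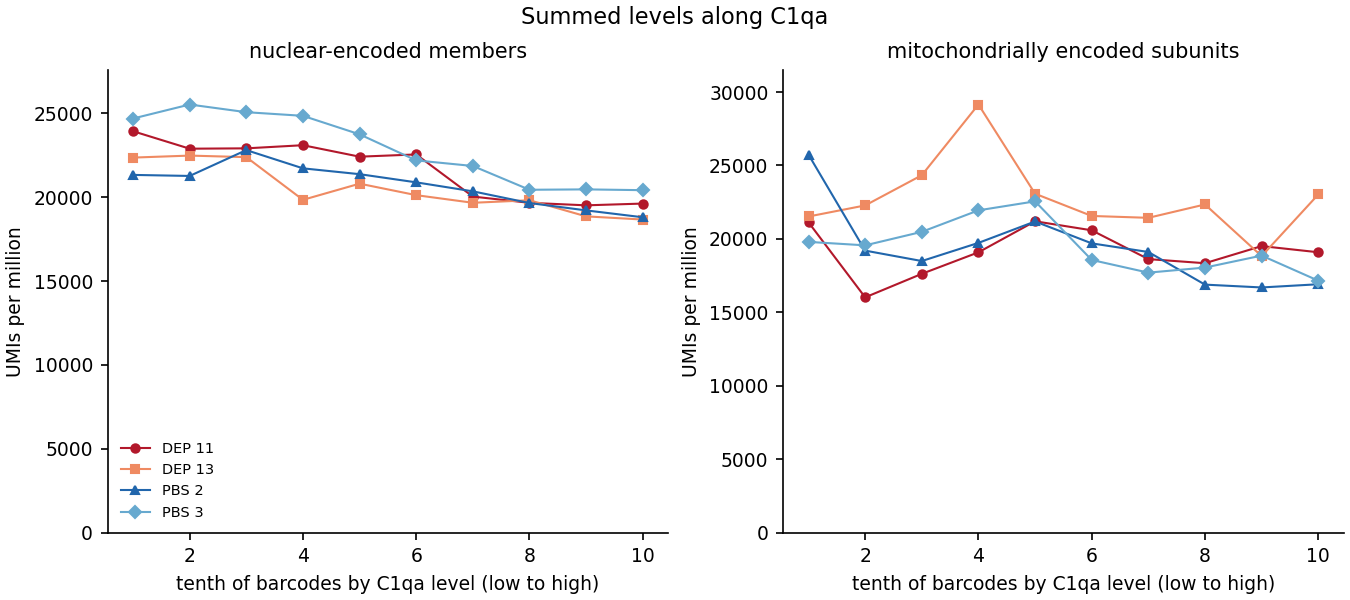
Summed level in CPM (vertical axes, from 0) of the 90 nuclear-encoded members (left) and of the mitochondrially encoded subunits (right) in 10 equal parts of the analysed barcodes ordered by C1qa (horizontal axes), with 1 line per mouse. On the left the lines run from between 21322 and 24681 in the lowest part to between 18663 and 20413 in the highest, and on the right DEP 13 peaks at 29150 in part 4 with no common slope.

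C1qa-high barcodes were deeper than Ly6c2-high ones. The difference of the members was present in all mice within each of 3 ranges of depth. From 1000 to 3000 UMIs per barcode, where a class held 13 to 38 barcodes of a mouse, Ly6c2-high barcodes stood at 24374, 21709, 21664 and 23744 CPM and C1qa-high barcodes at 19630, 17718, 17978 and 18030. From 3000 to 6000, Ly6c2-high barcodes stood at 22705, 23171, 21752 and 24448 CPM and C1qa-high barcodes at 19061, 18249, 17874 and 19642. From 6000 to 12000 they stood at 23277, 22257, 22137 and 25022 against 19224, 19563, 18507 and 20872.

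Gene by gene, the 8 sums (2 classes of 4 mice) were compared with the quasi-likelihood test of edgeR with the mouse as a block, and p-values were adjusted over all 6825 genes tested by Benjamini-Hochberg. Of all genes 39.7% were called. Of the 90 members 87 passed the filter on low counts, and Cox7a1, Ndufaf5 and Ndufaf6 did not. In C1qa-high barcodes 35 members were lower and 7 higher at an adjusted p under 0.05. Over all genes tested, 21.0% were lower and 18.7% higher, against 40.2% and 8.05% of the members. The median log2 fold change was -0.15 over the members and 0.0052 over all genes. Each of the 35 was lower, and each of the 7 higher, in 4 of 4 mice. With 28 members the levels of the 2 classes did not overlap and C1qa-high was below, and with 5 it was above; over all genes these shares were 16.0% and 13.8%. With DESeq2, 23 of 87 members and 955 of 6825 genes were called lower. Without the mouse as a block the numbers were 17 and 1028. With classes set by which of the 2 genes had more UMIs they were 18 of 87 members and 920 of 6669 genes. When each barcode was thinned to 1000 UMIs, 7 of 75 members and 342 of 1981 genes were lower, and 2 members and 324 genes higher. After thinning the members thus had smaller shares of both calls than all genes. Thinning also reset the classes, with 121, 43, 109 and 135 barcodes left in the Ly6c2-high class. Members that lost their call after thinning included Uqcrfs1 (-0.47, adjusted p = 0.0673 in edgeR), Ndufa5 (0.54), Ndufc2 (0.14), Cox5b (-0.18), Cox6a1 (-0.22), Cox7a2l (-0.17), Cox7b (-0.12) and Cox8a (-0.13), with adjusted p up to 0.579 and no change of direction.

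**Figure D3:**
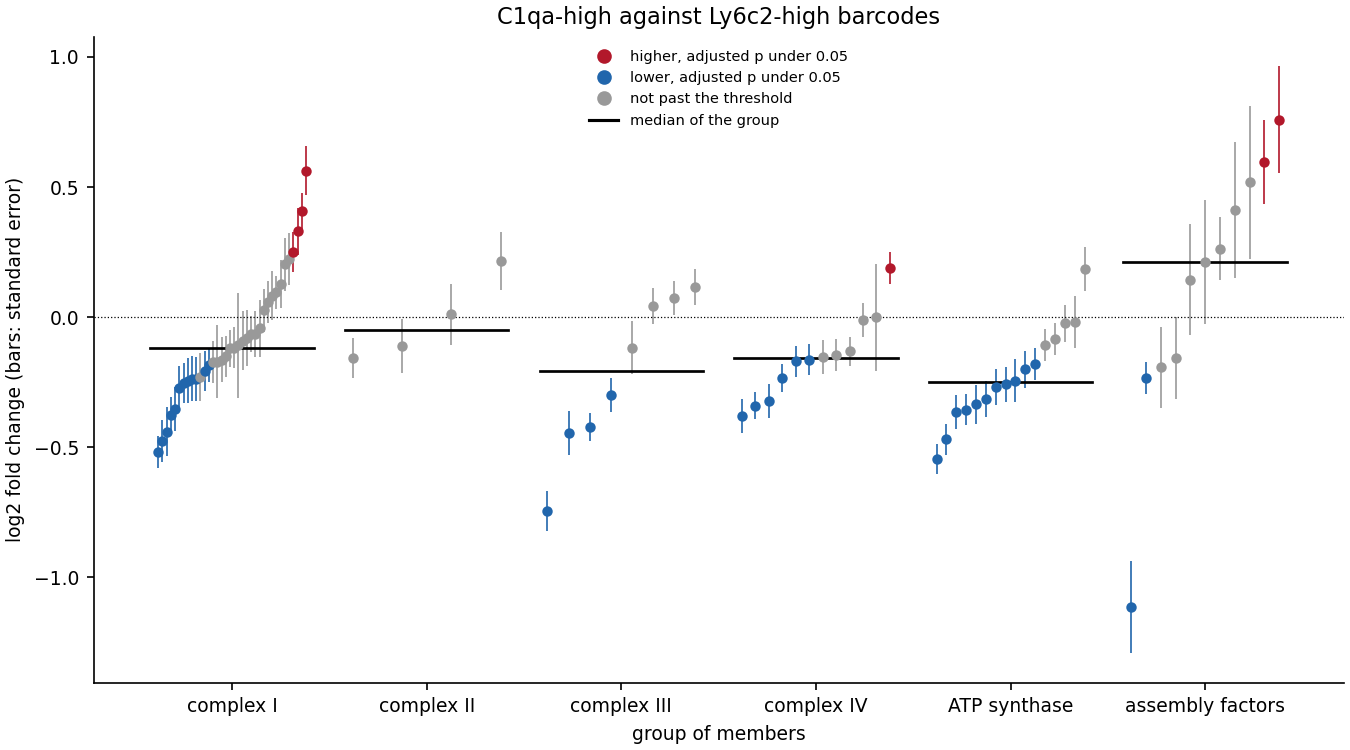
Log2 fold change of C1qa-high against Ly6c2-high barcodes (vertical axis, bars show the standard error) for the 87 tested members, ordered by value within each group (horizontal axis), with the median of each group as a line. In the ATP synthase 11 of 16 points are called lower (blue) and 0 higher (red), while complex I holds 12 lower and 4 higher. Over all genes 21.0% were lower and 18.7% higher.

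ATP synthase subunits had the highest share of lower calls among the groups. Of 16 tested, 11 were lower (68.8%) and 0 higher, against 21.0% and 18.7% of all genes. The median log2 fold change was -0.25, against 0.0052 over all genes. The member with the most UMIs, Atp5l (subunit g, in the membrane part), was measured at 767, 957, 713 and 966 CPM in Ly6c2-high and 506, 611, 516 and 622 in C1qa-high barcodes. The classes did not overlap, and the log2 fold change was -0.54 (SE 0.057, adjusted p = 1.47e-08). Within each class DEP 13 and PBS 3 were above DEP 11 and PBS 2.

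Atp5h (subunit d of the peripheral stalk, which holds the catalytic head still) was measured at 641, 686, 637 and 729 against 464, 439, 459 and 521 CPM. It fell by 0.47 on the log2 scale (SE 0.059, adjusted p = 3.31e-07), again without overlap. The peripheral stalk subunits Atp5o (-0.34) and Atp5f1 (-0.31) were also called lower, while Atp5j (-0.08, adjusted p = 0.314) was not. Called lower too were all 3 subunits of the central stalk, Atp5c1 (-0.36), Atp5e (-0.36) and Atp5d (-0.26). In the catalytic head, Atp5a1 (-0.20) and Atp5b (-0.18) differed less. Atp5mpl (-0.27) and Atp5k (-0.24), small membrane subunits, were called as well.

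Of the 5 ATP synthase members not called, Atp5j and the membrane subunit Atp5j2 (-0.11, adjusted p = 0.179) were lower in 4 of 4 mice, and the others form the c-ring. Its subunit is encoded by 3 genes, Atp5g1, Atp5g2 and Atp5g3, whose mature proteins are the same. Atp5g1 was measured at 252, 226, 229 and 303 CPM in Ly6c2-high and 237, 229, 228 and 275 in C1qa-high barcodes, a log2 fold change of -0.02 (SE 0.071, adjusted p = 0.837). Atp5g2 was measured at 183, 168, 161 and 193 against 211, 220, 185 and 176, a value of 0.18 (SE 0.085, adjusted p = 0.0900). In 3 mice it was higher and in PBS 3 lower in the C1qa-high class. Atp5g3 stood near 85.0 to 107 and 90.6 to 95.6, with a log2 fold change of -0.02 (SE 0.099). The copies ranked Atp5g1, Atp5g2, Atp5g3 by level in both classes of every mouse. None of the 3 passed the threshold, but Atp5g2 did without PBS 3 (0.29, adjusted p = 0.0156) and with no gene filter (0.23, adjusted p = 0.0327). The signs of Atp5g1 and Atp5g3 turned in some settings (up to 0.38 after thinning for Atp5g1 and 0.11 with classes by the gene with more UMIs for Atp5g3). A missed threshold does not show that they were equal between the classes.

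Complex III was divided. Uqcrfs1, the Rieske iron-sulfur subunit that passes electrons towards cytochrome c, was measured at 238, 205, 232 and 210 CPM in Ly6c2-high and 140, 121, 131 and 123 in C1qa-high barcodes. The classes were far apart, and Uqcrfs1 fell by 0.74 on the log2 scale (SE 0.077, adjusted p = 1.15e-08), the smallest p of any member. Uqcrh, the hinge subunit next to cytochrome c1 and the complex III member with the most UMIs, stood at 854, 879, 797 and 958 against 602, 637, 579 and 715, with a log2 fold change of -0.42 (SE 0.055, adjusted p = 5.37e-07). Uqcrc1, a core subunit, was called at -0.45 and Uqcrq at -0.30. The remaining 4 were not called, and Uqcr11 (0.12), Uqcrb (0.07) and Uqcr10 (0.04) had positive values.

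In complex IV, 6 of 12 tested members were lower and 1 was higher, against 21.0% and 18.7% of all genes. Cox4i1, with 35160 UMIs the most abundant member of all, was measured at 1312, 1179, 1281 and 1377 CPM in Ly6c2-high and 1012, 894, 998 and 1052 in C1qa-high barcodes. Its log2 fold change was -0.34 (SE 0.051, adjusted p = 5.59e-06), without overlap. Cox5b, a matrix-side subunit, stood at 452, 363, 406 and 405 against 339, 245, 321 and 305. It fell by 0.38 on the log2 scale (SE 0.065, adjusted p = 3.46e-05), and DEP 13 was lowest in both classes.

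Cox5a, the other matrix-side subunit of complex IV, went the opposite way. It was measured at 419, 406, 441 and 476 CPM in Ly6c2-high and 476, 449, 490 and 516 in C1qa-high barcodes, higher in 4 of 4 mice although the ranges of the classes overlap. The log2 fold change was 0.19 (SE 0.061, adjusted p = 0.0150). The call was lost with DESeq2 (adjusted p = 0.0922) and without the mouse as a block (adjusted p = 0.208).

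Several complex IV subunits have copies made in different tissues, and the copies known from most tissues carried nearly all the signal here. Of the Cox4 pair, Cox4i2 did not reach the minimum for a member. Cox6a1 stood at 446 to 525 CPM in Ly6c2-high and 386 to 452 in C1qa-high barcodes (-0.17, SE 0.060, adjusted p = 0.0269), while its heart and muscle copy Cox6a2 was under the minimum. The Cox6a1 call was lost with DESeq2, no gene filter, thinning, classes by the gene with more UMIs and no block (adjusted p = 0.131 to 0.224), and without any 1 mouse (adjusted p = 0.0529 to 0.0931). Cox6b1 stood at 626 to 749 and 571 to 659 (-0.13, adjusted p = 0.0703). Its copy Cox6b2, best known from testis, stood at 15.9 to 37.7 and 19.9 to 35.5 CPM, with a log2 fold change of -0.0011 whose sign depended on the setting. Cox7a2 stood at 325 to 415 and 307 to 343 (-0.15, adjusted p = 0.0682), and the muscle copy Cox7a1 at 1.05 to 3.87 and 3.49 to 7.40, too low to be tested. Cox7b (-0.32, adjusted p = 0.000280) and Cox8a (-0.23, adjusted p = 0.00122) were called lower, both not with classes by the gene with more UMIs (adjusted p = 0.114 and 0.0964) and Cox8a not without the block (adjusted p = 0.0786). No UMI of Cox7b2, Cox8b or Cox8c was found. Ndufa4 stood at 347 to 464 and 344 to 413 (-0.01, adjusted p = 0.914; -0.18 and adjusted p = 0.0368 with lymphoid barcodes kept, 0.21 after thinning), and its copy Ndufa4l2 was under the minimum. Cox7c (-0.16) was the sixth of the lower members.

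**Figure D4:**
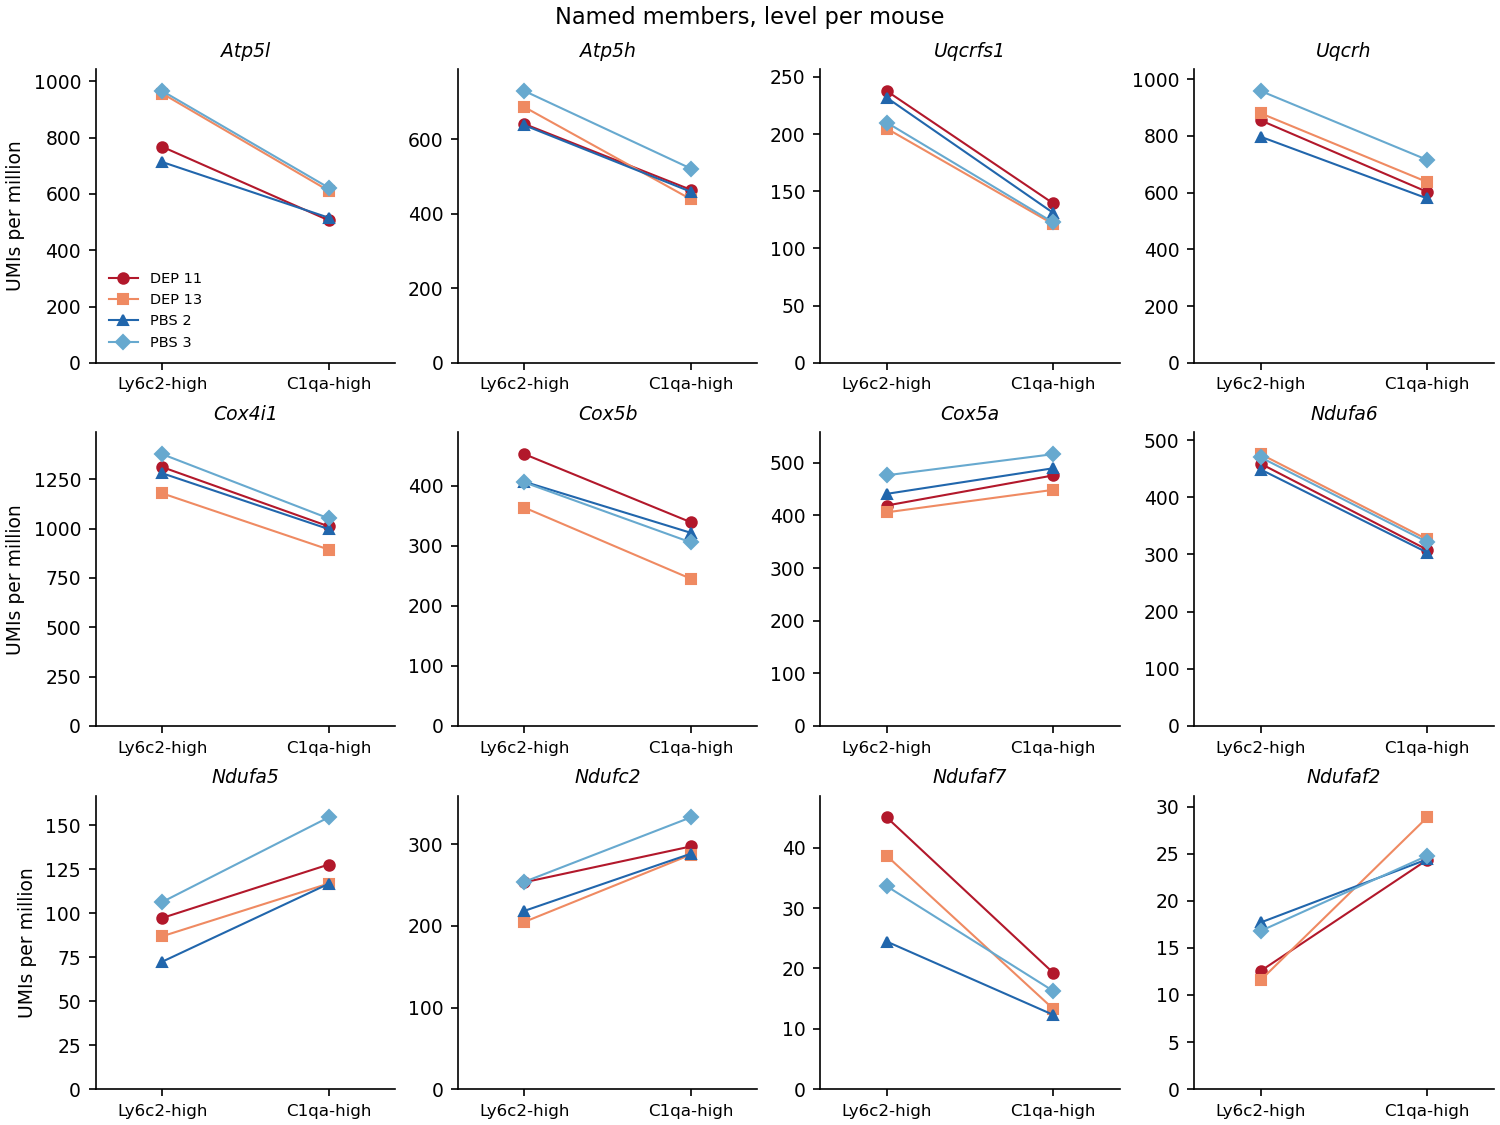
Level in CPM (vertical axes, from 0) of 12 named members in Ly6c2-high and C1qa-high barcodes (horizontal axes), with 1 line per mouse. Atp5l, Atp5h, Uqcrfs1, Uqcrh, Cox4i1, Cox5b, Ndufa6 and Ndufaf7 fall and Cox5a, Ndufa5, Ndufc2 and Ndufaf2 rise in all 4 mice.

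Complex I, the largest complex, held changes in both directions, with 12 of 36 members lower, 4 higher and a median log2 fold change of -0.12. The share of lower members (33.3%) was above the 21.0% of all genes, and that of higher members (11.1%) below the 18.7%. Ndufa6, an accessory subunit that binds the mitochondrial acyl carrier protein, was measured at 459, 475, 448 and 470 CPM in Ly6c2-high and 308, 326, 303 and 322 in C1qa-high barcodes. The values are tight within each class and do not overlap, and the log2 fold change was -0.52 (SE 0.062, adjusted p = 1.54e-07). Ndufb3, an accessory subunit of the membrane arm, stood at 178, 185, 157 and 184 against 123, 124, 116 and 126, and fell by 0.48 (SE 0.081, adjusted p = 2.89e-05).

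Among the core subunits, which carry the flavin and the iron-sulfur clusters, Ndufs8 (-0.35) and Ndufv2 (-0.24) were lower. The other 8 lower members were the accessory subunits Ndufs4 (-0.44), Ndufa3 (-0.38), Ndufa1, Ndufb11, Ndufb6, Ndufa11, Ndufb5 and Ndufa13 (-0.27 to -0.18).

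The higher members of complex I were all accessory subunits. Ndufa5, of the matrix arm, was measured at 97.4, 87.0, 72.5 and 106 CPM in Ly6c2-high and 128, 117, 117 and 155 in C1qa-high barcodes. Every C1qa-high value was above every Ly6c2-high value, and the log2 fold change was 0.56 (SE 0.094, adjusted p = 2.39e-05). Ndufc2, of the membrane arm, stood at 253, 205, 218 and 254 against 297, 287, 288 and 333, also without overlap (0.41, SE 0.071, adjusted p = 4.14e-05). Ndufa12 (0.33) and Ndufv3 (0.25) were the others. Ndufa2, with the most UMIs in complex I, stood at 366 to 411 and 373 to 435, with a log2 fold change of 0.10 (SE 0.063, adjusted p = 0.250).

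None of the 4 complex II subunits was called in edgeR, against 39.7% of all genes, and 0 had an unadjusted p under 0.05. Sdhb, the iron-sulfur subunit and the complex II member with the most UMIs, was measured at 218, 214, 198 and 230 CPM in Ly6c2-high and 196, 186, 188 and 178 in C1qa-high barcodes, lower in 4 of 4 mice but not past the threshold (-0.16, SE 0.078, adjusted p = 0.112), and its sign turned after thinning (0.077). Sdhd (-0.11), the flavoprotein Sdha (0.01) and Sdhc (0.22) had values on both sides of 0.

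Assembly factors, which help to build the complexes or, for Cox7a2l, to join them, held values in both directions. Of 11 tested, 2 were lower and 2 higher (18.2% each), near the 21.0% and 18.7% of all genes. Their median log2 fold change was 0.21, while their summed level had a mean log2 ratio of -0.13 ± 0.062 (-0.011 with lymphoid barcodes kept and -0.217 without mitochondrially encoded and ribosomal protein genes), and Cox7a2l alone held 13969 of their UMIs. Cox7a2l was measured at 573, 558, 512 and 462 CPM in Ly6c2-high and 443, 459, 427 and 407 in C1qa-high barcodes (-0.23, SE 0.060, adjusted p = 0.00280; 0.104 without the block). Ndufaf7, a methyltransferase that modifies a core subunit of complex I, stood at 45.0, 38.7, 24.5 and 33.6 against 19.3, 13.3, 12.3 and 16.3. It fell by 1.11 on the log2 scale (SE 0.18, adjusted p = 1.13e-05), the most of any tested member.

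The 2 higher assembly factors were low in level. Ndufaf2, which acts late in building complex I, stood at 12.6, 11.6, 17.7 and 16.8 CPM in Ly6c2-high and 24.4, 28.9, 24.4 and 24.8 in C1qa-high barcodes (0.76, SE 0.21, adjusted p = 0.00407). Sdhaf4, which acts on the flavoprotein of complex II, stood at 19.9, 36.7, 28.7 and 49.5 against 49.3, 56.3, 38.8 and 55.9 (0.60, SE 0.16, adjusted p = 0.00419). For Sdhaf4 the classes overlap. The Ndufaf2 call was lost with DESeq2 (adjusted p = 0.0549), and the Sdhaf4 call without the block (adjusted p = 0.0753) and without DEP 11 (0.41, adjusted p = 0.0631).

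Other genes of the pathway were taken from lists of their own. Of the 12 mitochondrially encoded subunits tested, 4 were higher in C1qa-high barcodes (mt-Nd1, mt-Nd4l, mt-Cytb and mt-Co1, 0.13 to 0.33) and 0 lower, against 18.7% higher and 21.0% lower of all genes. Among electron carriers and entry enzymes, 1 of 9 was lower and 1 higher (11.1% each), shares below those of all genes. The lower one was Cycs, the cytochrome c that links complexes III and IV, measured at 301, 379, 316 and 404 CPM in Ly6c2-high and 151, 147, 145 and 179 in C1qa-high barcodes (-1.11, SE 0.074, adjusted p = 3.12e-12). Coq7, of ubiquinone synthesis, was the higher one (0.87), at levels of 3.87 to 11.4.

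Slc25a5, an ADP/ATP carrier of the inner membrane, stood at 989, 943, 854 and 1047 against 537, 471, 504 and 582 CPM (-0.83, SE 0.057, adjusted p = 6.62e-12). It was 1 of 3 lower genes among 6 carriers and porins, with Vdac3 (-0.43) and the phosphate carrier Slc25a3 (-0.25), and 0 were higher. Of 16 genes of the tricarboxylic acid cycle and pyruvate dehydrogenase, 3 were lower (Cs at -0.62, Mdh2 at -0.52 and Pdha1 at -0.47) and 0 higher. The share of 18.8% lower is near the 21.0% of all genes. Values were below 0 for 14 of the 16, against 3375 of all 6825 genes. Their summed level was lower in 4 of 4 mice, with a mean log2 ratio of -0.31 ± 0.11 (SD, n = 4).

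Atpif1, the inhibitor that blocks the ATP synthase from hydrolysing ATP, was among the higher genes. It stood at 334, 331, 376 and 413 CPM in Ly6c2-high and 534, 535, 555 and 653 in C1qa-high barcodes (0.68, SE 0.062, adjusted p = 1.37e-09), without overlap. It was 1 of 24 other assembly factors and regulators tested, of which 5 were lower (Cox19, Cox16, Pet100, Uqcc2 and Cox14, -0.79 to -0.22) and 2 higher (Atpif1 and Sco2). These shares, 20.8% lower and 8.33% higher, stand against 21.0% and 18.7% of all genes. Of 73 proteins of the mitochondrial ribosome 11 were lower and 6 higher, with a median of -0.03, which is 15.1% and 8.22% against 21.0% and 18.7% of all genes. Their summed level was lower in 4 of 4 mice, with a mean log2 ratio of -0.22 ± 0.041 that is close to that of the respiratory chain members. Among biogenesis regulators, 5 of 11 were tested and Nrf1 was lower (-0.63, SE 0.23, adjusted p = 0.0279), at 11.6 to 25.3 and 9.25 to 17.8 CPM with overlapping classes. No UMI of Ppargc1a was found in the analysed barcodes.

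NRF1 letters were found with members of either direction. They were in 8 of 32 windows of lower members, 3 of 8 of higher members and 10 of 39 of members not called. Those of higher members were overlapping windows of Ndufa5, which hold the same letters, and a window of Sdhaf4. ETS letters were in 9 of 32, 0 of 8 and 12 of 39, and YY1 letters in 2 of 32, 0 of 8 and 7 of 39. No window of a higher member held the letters of Sp1, the ERR receptors or the cyclic AMP response element. Atp5h, with NRF1 and ETS letters, and Ndufa5, with NRF1 letters, moved in opposite directions, and Atp5g2, with NRF1 letters, was not called.

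The second question was whether DEP exposure changed these genes. Over all analysed barcodes the members summed to 21227 and 20394 CPM in DEP 11 and DEP 13 and to 20423 and 22733 in PBS 2 and PBS 3. PBS 3 was highest, the other 3 mice lay close together, and the groups overlap. The means were 20810 ± 589 for DEP and 21578 ± 1633 for PBS (SD, n = 2 each), a log2 ratio of -0.05. The difference was smaller than the spread between the PBS mice. PBS 3 had the highest summed level of the 4 mice in each of the 4 classes compared, and DEP 11 had it (21191) in the few barcodes high for both genes. It was the highest mouse for 54 of 87 members (62.1%), against 20.8% of all genes tested, and PBS 2 was the highest for 4 members (4.60%) against 32.8%.

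By complex, the log2 ratio of DEP to PBS in all analysed barcodes was -0.05 for complex I, -0.02 for complex II, -0.07 for complex III, -0.06 for complex IV and -0.05 for the ATP synthase. In complexes I, III and IV and in the ATP synthase PBS 3 was highest. Assembly factors, at 758 and 785 CPM with DEP, lay above the 714 and 726 of the PBS mice without overlap, a log2 ratio of 0.10. Mitochondrially encoded subunits stood at 19135 and 22076 against 18513 and 19334, a log2 ratio of 0.12 in the direction opposite to the nuclear-encoded sum, with DEP 13 highest.

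In the gene-wise test, 0 of 87 members passed an adjusted p of 0.05 in all analysed barcodes, as did 0.0% of the 6567 genes tested. At an unadjusted p under 0.05 there were 0 members and 169 genes, and DESeq2 and the likelihood ratio test of edgeR also called 0 members. The median log2 fold change of the members was -0.06, with 60 of 87 below 0, and that of all genes was -0.0048. This direction rested on PBS 3. Without PBS 3 the median was 0.06 with 21 below 0, and without PBS 2 it was -0.15 with 70 below 0. Leaving out DEP 11 or DEP 13 gave -0.065 and -0.062. Both DEP mice were above both PBS mice for 7 members and below for 9, against 14.3% and 12.5% of all genes. The median standard error of a member was 0.16, which limits what 2 mice a group can show.

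**Figure D5:**
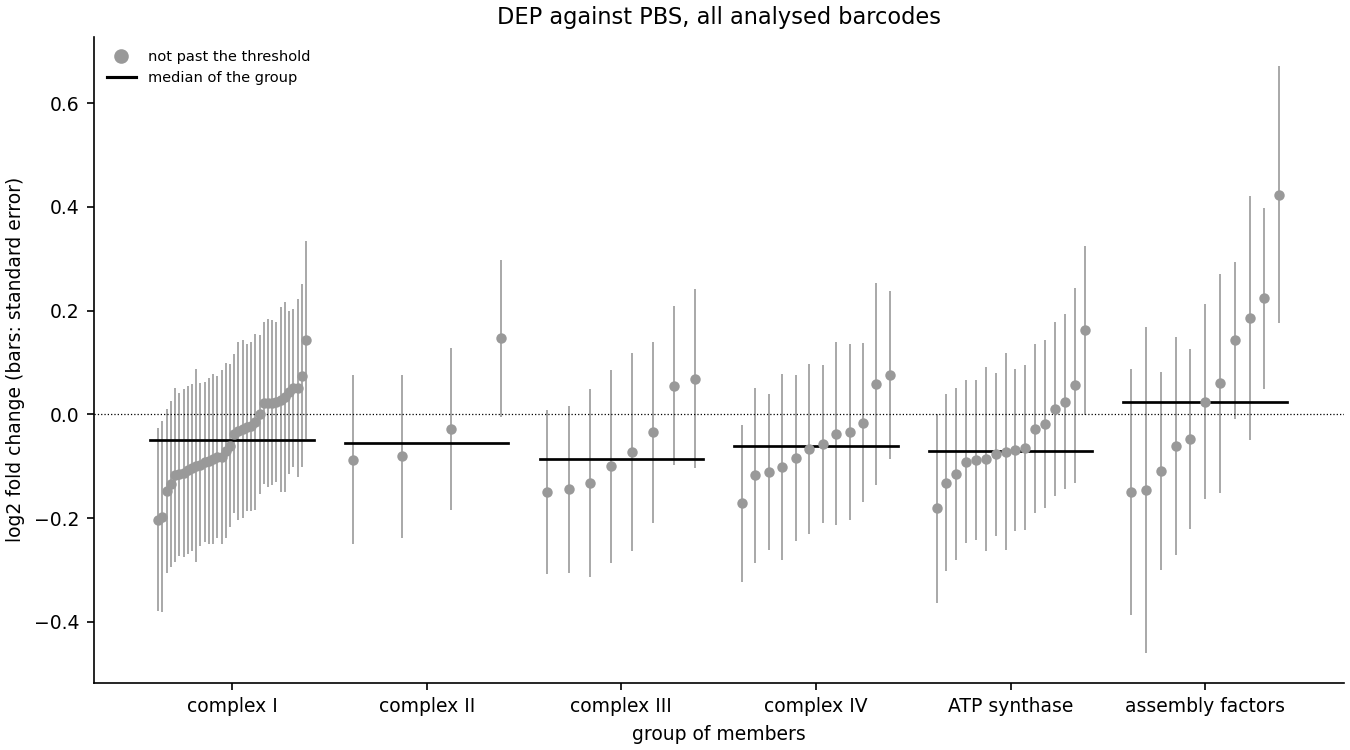
Log2 fold change of DEP against PBS in all analysed barcodes (vertical axis, bars show the standard error) for the 87 tested members, ordered by value within each group (horizontal axis), with the median of each group as a line. All values lie between -0.20 and 0.42 and 0 passed the threshold.

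The members with the smallest p in this comparison are named for their values alone. Ndufaf1, a complex I assembly factor, was measured at 10.1 and 11.6 CPM in DEP and 7.52 and 8.48 in PBS mice (0.42, SE 0.25, unadjusted p = 0.119 in edgeR). Sdhaf2, an assembly factor of complex II, stood at 34.4 and 35.4 against 29.0 and 30.7 (0.22, SE 0.17). Atp5g2 stood at 215 and 217 against 180 and 205 (0.16, SE 0.16). In these 3 both DEP mice were above both PBS mice.

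On the other side, Ndufs6, an accessory subunit of complex I, stood at 148 and 143 CPM in DEP and 147 and 186 in PBS mice (-0.20, SE 0.18; 0.019 without PBS 3). Cox5a stood at 476 and 431 against 500 and 520 (-0.17, SE 0.15). Ndufv1, which carries the flavin of complex I, stood at 54.7 and 38.7 against 57.4 and 50.3 (-0.20, SE 0.18). Of these, the groups of Cox5a alone did not overlap.

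Within the Ly6c2-high class, 0 of 85 tested members were called, as were 0.0% of 5620 genes, and 0 members and 156 genes had an unadjusted p under 0.05. Both DEP mice were above both PBS mice for 7 members and below for 8, against 15.6% and 14.1% of all genes. The members summed to 22965 and 22865 CPM in DEP and 22003 and 24462 in PBS mice, and their median log2 fold change was 0.01, which became -0.13 without PBS 2 and 0.11 without PBS 3. The smallest p values in this class belonged to Ndufaf7 (45.0 and 38.7 against 24.5 and 33.6, a log2 fold change of 0.54, SE 0.31), Cox6b2 (0.50) and Cox7a2l (0.22), and on the lower side to Sdhaf4 (19.9 and 36.7 against 28.7 and 49.5, -0.55, SE 0.40), Uqcrq (-0.24) and Ndufaf2 (-0.50).

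Within the C1qa-high class, 0 of 89 tested members and 1 of 7213 genes (0.0139%) were called, and 0 members and 230 genes had an unadjusted p under 0.05. Both DEP mice were above both PBS mice for 7 members and below for 12, against 14.7% and 13.9% of all genes. The sums were 19516 and 19397 in DEP and 19407 and 20618 in PBS mice, with a median log2 fold change of -0.02 over members, which became -0.094 without PBS 2 and 0.071 without PBS 3. Sdhaf2 (0.36), Atp5g2 (0.26) and Ndufaf5 (0.46) had the smallest p on the higher side. Ndufaf4 (-0.30), Ndufv1 (-0.26) and Uqcr11 (-0.18) had them on the lower side. For Atp5g2 the DEP mice stood at 211 and 220 and the PBS mice at 185 and 176 CPM, without overlap (SE 0.17), and the sign turned after thinning (-0.047).

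A difference of the DEP effect between both classes was tested as an interaction term, the effect in Ly6c2-high minus that in C1qa-high barcodes. Over all genes 0.176% were called, 12 of 6825 (0.132% lower and 0.044% higher), and 0 of 87 members. At an unadjusted p under 0.05 there were 2 members and 380 genes, and DESeq2 called 0 genes. Sdhaf4 (-0.73, SE 0.32, unadjusted p = 0.0291 in edgeR) and Ndufc1 (-0.36, SE 0.18, unadjusted p = 0.0483 in edgeR), an accessory subunit of complex I, had the smallest p, followed by Ndufa1 (-0.31). The values on the higher side belonged to Atp5mpl (0.22), Cox6b2 (0.55, but -0.41 without DEP 11) and Uqcrc1 (0.21). Their smallest adjusted p was 0.861.

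Levels of other cell types could touch these values. In the analysed barcodes the 7 plasma cell markers summed to 581, 855, 433 and 1308 CPM and the 12 epithelial markers to 68.6, 61.3, 29.0 and 193. Both were highest in PBS 3, the mouse with the highest members. Plasma cell markers stood at 408 to 1233 in the Ly6c2-high and 388 to 1309 in the C1qa-high class, epithelial markers at 9.27 to 60.7 and up to 107. T cell markers (56.5 to 92.1 against 7.40 to 24.0), eosinophil markers (54.0 to 112 against 3.70 to 36.6), neutrophil markers (43.9 to 71.5 against 26.3 to 37.7) and dendritic cell markers (32.9 to 84.3 against 22.6 to 28.5) were higher in the Ly6c2-high class without overlap, with the eosinophil gene Epx and the neutrophil gene S100a9 at 0 in both classes of every mouse. B cell markers (25.3 to 55.1 against 76.0 to 110) were higher in the C1qa-high class. Mast cell markers reached at most 4.43 in either class. Stromal and endothelial markers stood at 170 in the Ly6c2-high class of PBS 2, at 10.3 to 19.3 in that of the other mice and at 45.5 to 51.1 in the C1qa-high class. Their part in the results was not tested. Barcodes led by lymphoid markers had 14169 to 15725 CPM of the members, and barcodes under 500 UMIs had 8567 to 11592, both below the 4 classes compared. Barcodes high for both genes ranged from 15485, in the 5 barcodes of DEP 13, to 21191.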

How the data were processed

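The data are 3' single-cell libraries, 1 per mouse. The deposited values are UMI counts per gene and cell barcode, not normalized. According to the submitters' processing notes and the methods, the authors used Cell Ranger and STAR 2.6.1a with 1 alignment reported per read against mm10, and merged the libraries without downsampling. Reads that fit a pseudogene or copy as well as a member can therefore have been given to either. Cells were sorted in parallel and sequenced together per the methods. The mouse of a barcode was read from its name. The filter on cells described in the methods left 4623 barcodes of this matrix, several times the number of analysed cells stated there, and what separates the numbers is not known here. Symbols came from GENCODE M21, and 28416 of 28692 identifiers received one.

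Barcodes with at least 1000 UMIs and not led by T, B or plasma cell markers were kept. UMIs were summed per mouse and class, and genes over 1 CPM in at least 2 sums with a UMI in at least 5% of barcodes were tested with edgeR 4.0.16 (TMM, quasi-likelihood F test, Benjamini-Hochberg threshold 0.05; R 4.3.3). Standard errors are the absolute log2 fold change divided by the square root of F. Fitted log2 fold changes were 0.04 (median) above ratios of CPM. DESeq2 1.42.0, scrublet in scanpy 1.11.5 (66 barcodes called in all, 25 of them in DEP 13, not removed) and the other alternatives are in the closing section. The mouse is the replicate in all tests. Class and mouse come together from the same animals, hence the block. Promoters are RefSeq windows.

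Named members were, per group, the 2 per direction with the smallest p past the threshold, the member with the most UMIs and all detected isoforms, and per DEP test the 3 per direction with the smallest p. Cycs, Slc25a5, Atpif1 and other pathway genes named are the called genes of their lists. Members, lists and classes were chosen with earlier results of these data known.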

Additional observations from a re-analysis of the deposited data

Results flagged for a closer look

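The summed level of the 13 mitochondrially encoded subunits differed between the classes in opposite directions in the DEP and the PBS mice. The log2 ratio of C1qa-high to Ly6c2-high barcodes was 0.13 in DEP 11 and 0.077 in DEP 13, and it was -0.034 in PBS 2 and -0.079 in PBS 3. The difference of the summed level between 2 and 2 mice was not tested. Gene by gene, the interaction test of edgeR covered 12 of the 13 and called 0 (smallest adjusted p = 0.722), as did DESeq2. In edgeR 5 had an unadjusted p under 0.05 (41.7%, against 5.57% of all 6825 genes). Values were below 0 for 11 of them, against 3462 of all genes, the direction of a DEP effect higher in C1qa-high barcodes.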

How the results depend on the processing

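The 35 lower and 7 higher members of the class comparison became 23 and 3 with DESeq2 (1768 of all genes called), 17 and 4 with no replicate block, 7 and 2 of 75 tested when barcodes were thinned to 1000 UMIs and classed anew (666 genes), and 18 and 7 when classes followed the gene with more UMIs (1718 genes). Without the block 1028 genes were lower and 991 higher. After thinning 342 of 1981 genes were lower and 324 higher, shares above those of the members. The cause of these changes was not tested. Without 1 mouse each, 25 to 29 members were lower and 6 to 8 higher. With no filter on genes the median of all 15526 genes was 0.20, and 1444 were lower and 1833 higher. Of 90 members, 24 were lower and 10 higher in that setting. The mouse is the block in the class comparison, where the pairing comes from the same animal. No paired analysis was possible for DEP against PBS because each mouse had a single treatment and no label pairs mice of the 2 groups.

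The mean log2 ratio of summed levels, C1qa-high over Ly6c2-high, was -0.310 for all members, -0.229 for complex I, -0.177 for complex II, -0.351 for complex III, -0.308 for complex IV, -0.402 for the ATP synthase and -0.217 for assembly factors without mitochondrially encoded and ribosomal protein genes. With lymphoid barcodes kept it was -0.143, -0.082, 0.0079, -0.173, -0.138, -0.229 and -0.011 in the same order, reversed for complex II. With classes by the gene with more UMIs it was -0.147 for all members, -0.103 for complex I, -0.197 for complex III, -0.143 for complex IV and -0.182 for the ATP synthase. Thinning gave -0.178 for complex IV. The DEP over PBS log2 ratio of assembly factors was 0.146 after thinning.

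No alternative called a member in any DEP test or in the interaction. Over all genes, DEP against PBS called 4 genes with DESeq2, 10 with the likelihood ratio test and 80 with no gene filter in all analysed barcodes (0 in the main fit), and 1, 20 and, after thinning, 1 in Ly6c2-high barcodes for the likelihood ratio test, no filter and thinning. In C1qa-high barcodes, where 1 gene was called, 7 were called with the likelihood ratio test, 35 with no filter, 2 without mitochondrially encoded and ribosomal genes, and 0 with RLE size factors, the cell filter of the study, at least 2000 UMIs, thinning, lymphoid barcodes kept, doublet calls left out and both other ways of setting classes. The 12 interaction genes became 0 with DESeq2, 24 with no filter, 2 with the cell filter of the study and 0 after thinning. Without 1 mouse each, 3 (DEP 11 left out) to 106 (PBS 2), 0 (DEP 13) to 24 (PBS 3) and 2 (PBS 3) to 17 (DEP 13) genes were called in the 3 DEP tests and 0 (DEP 13) to 35 (PBS 3) in the interaction.

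Members not called whose sign turned were Sdhb (0.077 thinned), Ndufa4 (0.037 no filter, 0.205 thinned), Cox6b2 (0.061 DESeq2, 0.019 likelihood ratio test, 0.046 no filter, 0.0015 at least 2000 UMIs, 0.013 lymphoid barcodes kept, 0.127 gene with more UMIs, 0.031 no replicate block), Atp5g1 (0.026 no filter, 0.380 thinned, 0.172 gene with more UMIs), Atp5g3 (0.029 no filter, 0.0034 at least 2000 UMIs, 0.011 cuts within each mouse, 0.114 gene with more UMIs) and, for DEP in C1qa-high barcodes, Atp5g2 (-0.047 thinned). Without 1 mouse each, the class difference ran from -0.21 to 0.36 for Cox6b2, -0.051 to 0.040 for Ndufa4, -0.039 to 0.015 for Atp5g1 and -0.058 to 0.057 for Atp5g3, the DEP value of Ndufs6 in all analysed barcodes from -0.40 to 0.019, and the interaction of Cox6b2 from -0.41 to 1.10.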
